A study of Mus musculus with 8 samples.

Results

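The genes described here are 10 transcriptional outputs and feedback inhibitors of the ERK pathway: the transcription factors Etv4 and Etv5, the phosphatases Dusp4, Dusp5 and Dusp6, the Sprouty genes Spry1, Spry2 and Spry4, and the Spred genes Spred1 and Spred2. They were listed by name and matched by symbol, and all 10 were found among the 27179 Entrez gene identifiers of the count files. Their RNA was measured in thymic epithelial cells (TECs), the stromal cells that support and select developing T cells, from C57BL/6 mice that were wild type (WT) or carried a knockout (KO) of Mcl1, a pro-survival member of the BCL-2 family. Cortical cells (cTECs) gave 4 WT libraries and 1 KO library, and medullary cells (mTECs) gave 2 WT libraries and 1 KO library. The sources used here do not give the ages of the mice, the cells in which Mcl1 was deleted, or whether cells of several animals were pooled. The labels do not say whether the libraries of a group came from separate animals, so p-values measure only the spread between these samples.

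In the ERK pathway, growth factor receptors activate RAS, which switches on the kinases RAF, MEK and ERK in turn, and ERK phosphorylates transcription factors in the nucleus. ERK output includes the PEA3 factors ETV4 and ETV5, and it also includes inhibitors of the pathway itself: dual-specificity phosphatases that remove phosphate from ERK, and Sprouty and SPRED proteins that act upstream, at RAS and RAF. Because the inhibitors are induced by the pathway they restrain, their RNA is often read beside that of the PEA3 factors. In the thymus, FGF and EGF family ligands are known growth signals for epithelial cells.

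The libraries held between 11516780 and 19171953 counts each. Levels are given as CPM, counts scaled to a common library size with TMM factors, which adjust for library composition. Mcl1 itself was at 227.8 to 301.9 CPM in WT cTECs and 8.23 CPM in KO cTEC, and at 112.7 and 203.5 CPM in WT mTECs and 78.7 CPM in KO mTEC. The Mcl1 change was called in cTECs (-4.97 ± 0.44, adjusted p = 0.000295) but not in mTECs (-1.01 ± 0.36, adjusted p = 0.538), so Mcl1 RNA does not set the library labelled KO mTEC clearly apart from WT, and each KO effect in mTECs, and each difference of KO effects, rests on that label. Summed over 8 cTEC markers, the level was 2970 to 5310 CPM in WT cTECs, 6410 in KO cTEC and 1380 to 1660 in mTEC libraries. The 6 mature mTEC markers summed to 524 to 718 CPM in WT cTECs, 21.2 in KO cTEC (Aire at 0), 1340 to 1690 in WT mTECs and 1520 in KO mTEC. The 9 tuft cell markers summed to 1150 to 1850 CPM in WT cTECs, 38.9 in KO cTEC (Trpm5, Gnat3, Rgs13 and Hepacam2 at 0), 834 to 949 in WT mTECs and 769 in KO mTEC, so they were higher in WT cTECs than in any mTEC library. Markers of other cells also moved with the KO libraries. The 7 fibroblast markers summed to 1130 CPM in KO mTEC against 147 to 179 in WT mTECs, and to 1050 in KO cTEC against 714 to 922 in WT cTECs. The 4 erythroid markers found summed to 953 CPM in KO mTEC against 29.7 to 63.8, and to 408 in KO cTEC against 16.1 to 70.4, with 1 of the 4 at 0 in each KO library. The 8 dendritic cell and macrophage markers summed to 11.6 CPM in KO cTEC (3 at 0) against 142 to 239 in WT cTECs, and to 653 in KO mTEC against 789 to 1050. The WT populations differed in these markers too. The fibroblast sum was 714 to 922 CPM in WT cTECs against 147 to 179 in WT mTECs. The dendritic cell and macrophage sum was 142 to 239 CPM in WT cTECs against 789 to 1050 in WT mTECs. The part of these differences in the KO effects, and in the mTEC against cTEC changes in WT, was not tested. In bulk samples, fewer cells of a type and less RNA per cell cannot be told apart. Immediate-early genes, which cell dissociation can induce, summed over 17 genes to 4220 CPM in WT cTEC 1 and 33700, 24500 and 28100 in WT cTEC 2 to 4, against 7360 in KO cTEC, 3510 and 2120 in WT mTECs and 4830 in KO mTEC.

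The clearest pattern was in KO cTEC, where Etv4 and Etv5 rose to 2055% and 1426% of their WT means. Dusp4 fell to 3.03% of its WT mean there, and Dusp5, Dusp6, Spry1 and Spry2 lay within the WT range. Spry4, Spred1 and Spred2 lay above all WT cTEC libraries, at 498.6%, 230.2% and 148.8% of their WT means, but were not called. In KO cTEC against WT cTECs, 2 of the 10 genes were higher and 1 was lower (edgeR quasi-likelihood test, adjusted p under 0.05), against 5.1% of all 18163 tested genes called higher and 12.4% called lower (17.5% in all). In WT mTECs against WT cTECs, Dusp6, Spry1 and Spred2 were lower and none was higher, against 13.9% of all genes lower and 13.2% higher (27% in all). In the library labelled KO mTEC against WT mTECs none of the 10 was called, and 0% of all genes were. There, 0 of the 10 had an unadjusted p under 0.05, against 1502 (8.27%) of all genes, and DESeq2 called 139 of all genes and limma-voom 0, with 0 of the 10 in either. A difference of KO effects between the populations was called for Dusp4 alone among the 10. Of all genes 6.81% were called, 6.16% with the more positive effect in mTECs and 0.644% with the more negative. All 10 genes passed the filter on low counts. The median log2 fold change of the 10 was -0.84 for mTEC against cTEC (all genes 0.06), 0.41 for KO against WT in cTECs (all genes -0.14) and 0.45 in mTECs (all genes -0.03).

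**Figure D1:**
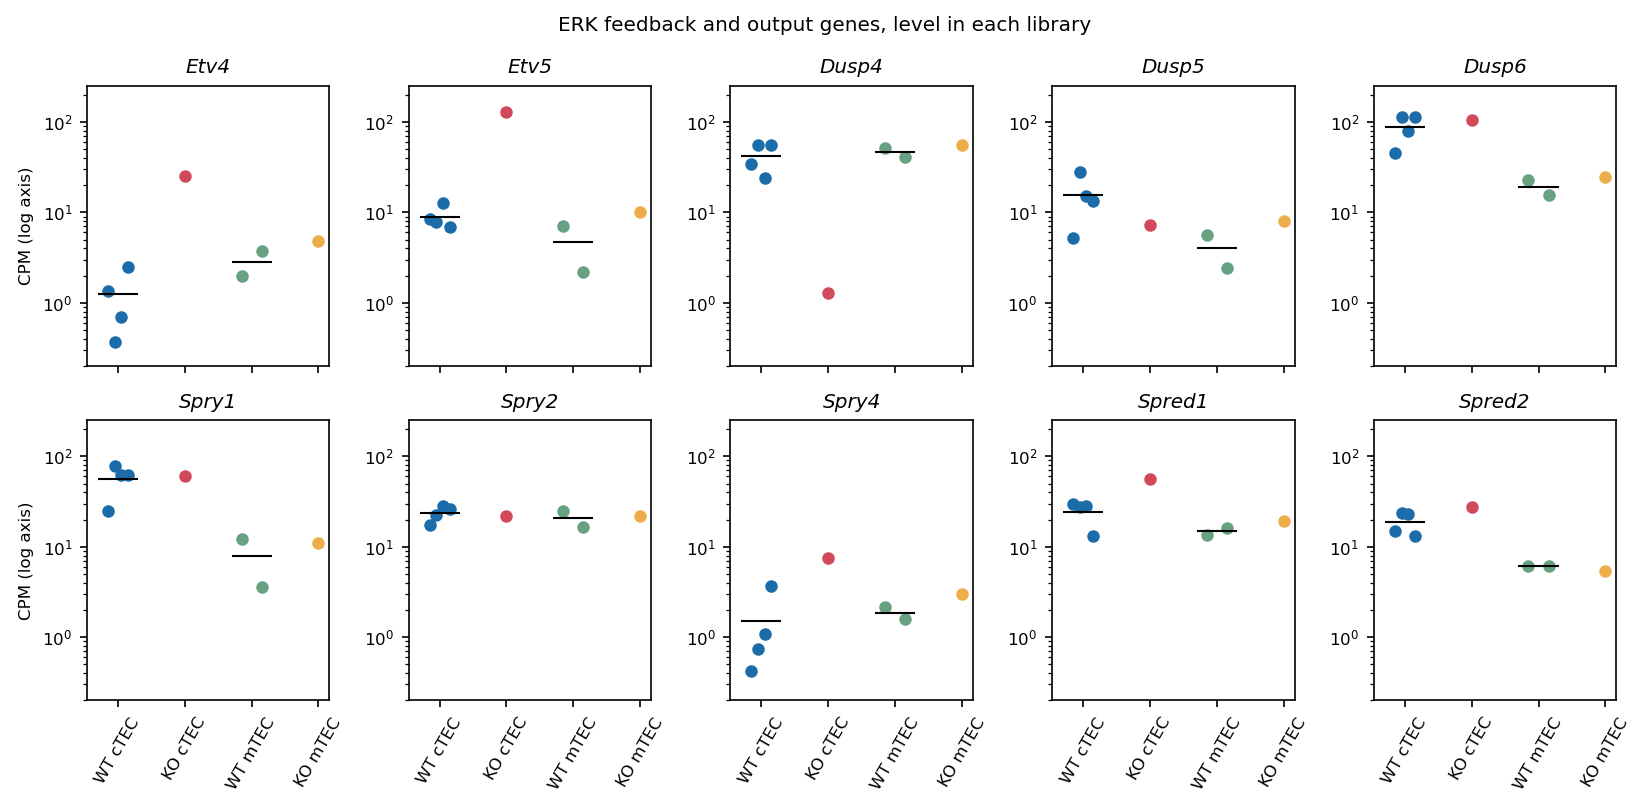
CPM of each of the 10 genes (log axis) in the 4 groups; points are libraries and the black line is the mean of a group with more than 1 library. KO cTEC lies above all 4 WT cTEC libraries for Etv4 and Etv5 and below all of them for Dusp4, and both WT mTEC libraries lie below all WT cTEC libraries for Dusp6, Spry1 and Spred2.

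Etv4 and Etv5 are ETS-family transcription factors whose RNA is a common readout of FGF receptor and ERK signalling. Etv4 (Entrez 18612, chromosome 11, 101769747 to 101785310, mm10) was near the floor of detection in WT cTECs, at 1.36, 0.369, 0.706 and 2.52 CPM in libraries 1 to 4 (19, 5, 13 and 46 counts). It was at 25.5 CPM in KO cTEC (396 counts), above every WT library. The log2 fold change was 4.34 ± 0.77 (SE; adjusted p = 0.00662), with 1 KO library and hence no replicate check on the KO side. In mTECs it was 1.98 and 3.75 CPM in WT and 4.79 CPM in KO. The KO library was again the highest, but the change of 0.74 ± 0.96 did not pass (adjusted p = 0.91).

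Etv5 (Entrez 104156, chromosome 16, 22381313 to 22439570) had a higher level and a tighter spread. It was at 8.49, 7.89, 12.7 and 6.86 CPM in the WT cTEC libraries, 8.99 ± 2.57 (SD, n = 4), and at 128.2 CPM in KO cTEC, where 1994 counts stood against 107 to 234 in WT. KO cTEC lay about an order of magnitude above its highest WT library, with a log2 fold change of 3.83 ± 0.47 (adjusted p = 0.00128). The call was lost when WT cTEC 1 was the only WT cTEC library (3.82, adjusted p = 0.0738), a fit with fewer samples. In mTECs the gene was at 7.15 and 2.17 CPM in WT and 10.03 CPM in KO, a change of 1.11 ± 0.62 (adjusted p = 0.696). The differences between the KO effects, mTEC minus cTEC, were -2.72 ± 0.85 for Etv5 (adjusted p = 0.112) and -3.60 ± 1.37 for Etv4 (adjusted p = 0.192). With DESeq2 the Etv5 difference passed (-2.71, adjusted p = 0.0225), and it also passed without WT mTEC 2 (-3.35, adjusted p = 0.0318). The Etv4 difference passed with WT cTEC 1 as the only WT cTEC (-3.39, adjusted p = 0.0061). Between the WT populations neither gene was called: the mTEC against cTEC change was 1.20 ± 0.69 for Etv4 (adjusted p = 0.224) and -0.95 ± 0.46 for Etv5 (adjusted p = 0.159), and without WT mTEC 1 the Etv5 change passed (-2.04, adjusted p = 0.0475).

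The 250 bases upstream of the Etv5 start (RefSeq, GRCm38.p6, chr16:22439571-22439820, minus strand) are shown because Etv5 had the highest level reached by either factor. Capitals mark CCAAT, a common proximal promoter element.
Etv5: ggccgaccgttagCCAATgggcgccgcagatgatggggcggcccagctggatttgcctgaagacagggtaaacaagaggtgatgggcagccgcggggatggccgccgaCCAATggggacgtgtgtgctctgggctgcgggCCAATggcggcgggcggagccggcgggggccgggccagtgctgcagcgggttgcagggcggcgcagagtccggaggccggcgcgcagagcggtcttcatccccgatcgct
This window held CCAAT 3 times. The motif was searched after the sequences had been seen, so the CCAAT shares that follow cannot measure how unusual the window is. Among 32851 promoter windows of the same length, 33.8% held it at least once on either strand and 2.79% at least 3 times. The second Etv5 window and the windows of Dusp6 and Spry1 each held it once, on the other strand. The ETS motifs CCGGAAGT and CCGGAA, where the former contains the latter, the AP-1 motif TGACTCA and the CRE motif TGACGTCA were in none of the 8 windows of the 7 genes with an entry (Etv5 with 2 windows, Dusp5, Dusp6, Spry1, Spry2, Spred1 and Spred2). Of all windows, 2.88%, 12%, 4.46% and 1.55% held these motifs on either strand.

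The phosphatases behaved differently from each other. DUSP4 is a nuclear phosphatase of ERK and JNK, DUSP5 a nuclear phosphatase specific for ERK, and DUSP6 a cytoplasmic phosphatase specific for ERK. Dusp4 (Entrez 319520, chromosome 8, 34807610 to 34819894) was at 34.2, 56.3, 23.9 and 55.2 CPM in WT cTECs and 1.29 CPM in KO cTEC (20 counts, against 441 to 1006 in WT). KO cTEC was far below the lowest WT library, a log2 fold change of -5.04 ± 0.67 (adjusted p = 0.0018). The limma-voom estimate was of similar size but missed the threshold (-4.91, adjusted p = 0.076). In mTECs Dusp4 was at 52.0 and 40.8 CPM in WT and 55.4 CPM in KO, a change of 0.26 ± 0.48 (adjusted p = 0.952). The difference of the KO effects, mTEC minus cTEC, was 5.29 ± 0.79 (adjusted p = 0.0057), and it also missed the threshold in limma-voom (5.18, adjusted p = 0.206). WT mTECs and WT cTECs overlapped, with a change of 0.13 ± 0.34 (adjusted p = 0.8). Markers of mature mTECs and tuft cells were also near 0 in KO cTEC, as given above, and their part in the Dusp4 result was not tested.

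Dusp6 (Entrez 67603, chromosome 10, 99263231 to 99267489) was at 44.9, 113.5, 79.0 and 113.3 CPM in WT cTECs, 104.2 CPM in KO cTEC, 22.9 and 15.5 CPM in WT mTECs and 24.9 CPM in KO mTEC. All 5 cortical libraries were above all 3 medullary ones. In WT, mTECs were lower by a log2 fold change of -2.19 ± 0.40 (adjusted p = 0.00756). The KO effect was 0.25 ± 0.45 in cTECs (adjusted p = 0.737) and 0.37 ± 0.52 in mTECs (adjusted p = 0.917). The cortical value depended on WT cTEC 1, the lowest library: against that library alone it was 1.13 and passed (adjusted p = 0.012), and without it 0.03. The population difference lost its call without WT mTEC 2 (-1.93) and with WT cTEC 1 and 4 alone (-2.04, adjusted p = 0.0677). It was also lost with replicate number as a block, as given at the end. A RefSeq long non-coding gene, Gm34921, overlaps Dusp6 and has no row in the count files, so reads of the pair cannot be told apart.

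Dusp5 (Entrez 240672, chromosome 19, 53529145 to 53541809) was at 5.21, 28.2, 15.3 and 13.4 CPM in WT cTECs, 7.20 in KO cTEC, 5.56 and 2.43 in WT mTECs and 7.95 in KO mTEC. WT cTEC 1 was within the range of the other groups and WT cTEC 2 to 4 were above it. The mTEC against cTEC change of -1.96 ± 0.68 did not pass (adjusted p = 0.0626), but it passed with DESeq2 (-1.89, adjusted p = 0.0144) and without WT cTEC 1 (-2.24, adjusted p = 0.01). The KO effect was -1.11 ± 0.85 in cTECs (adjusted p = 0.404) and 0.99 ± 0.86 in mTECs (adjusted p = 0.8291). Against WT cTEC 1 alone the cortical sign turned (0.38, adjusted p = 0.674). WT cTEC 1 was also the WT cTEC library with the lowest Dusp6, Spry1 and immediate-early levels, and the part of the immediate-early difference in these values was not tested.

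The 250 bases upstream of Dusp5 (chr19:53528895-53529144, plus strand) and of Dusp6 (chr10:99262981-99263230, plus strand) are shown to set a phosphatase whose level split the WT cTEC libraries beside the one with the highest level in cTECs. In Dusp5 the capitals mark CArG boxes, the element bound by serum response factor, a transcription factor that ERK-phosphorylated ELK1 joins on DNA. In Dusp6 they mark CCAAT on the other strand.
Dusp5: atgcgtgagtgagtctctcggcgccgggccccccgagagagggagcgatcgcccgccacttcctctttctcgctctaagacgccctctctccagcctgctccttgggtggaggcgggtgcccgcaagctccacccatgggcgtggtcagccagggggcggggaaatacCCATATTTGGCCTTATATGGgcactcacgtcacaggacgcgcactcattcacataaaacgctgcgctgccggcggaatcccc
Dusp6: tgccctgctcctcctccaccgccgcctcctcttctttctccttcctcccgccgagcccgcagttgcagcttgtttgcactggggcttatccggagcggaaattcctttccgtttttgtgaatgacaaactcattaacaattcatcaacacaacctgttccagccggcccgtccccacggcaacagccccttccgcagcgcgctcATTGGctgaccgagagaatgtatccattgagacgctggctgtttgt
The Dusp5 window held 2 CArG boxes side by side, from 82 to 63 bases before the start. Of all windows, 1.47% held at least 1 CArG box and 0.0183% at least 2, and none of the other 7 windows of these genes held any. CCAAT and the CArG box were searched after the sequences had been seen.

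Sprouty proteins are membrane-associated inhibitors that act between receptors and RAF. Spry1 (Entrez 24063, chromosome 3, 37639947 to 37644599) followed the cortical pattern of Dusp6. It was at 25.0, 77.5, 62.7 and 62.2 CPM in WT cTECs, 60.8 in KO cTEC, 12.1 and 3.59 in WT mTECs and 11.1 in KO mTEC, with every cortical library above every medullary one. WT mTECs were lower by -2.86 ± 0.61 on the log2 scale (adjusted p = 0.0129). This call was lost without WT mTEC 2 (-2.23), with WT cTEC 1 and 4 alone (-2.48, adjusted p = 0.0911) and with WT cTEC 1 alone (-1.72). It was also lost with replicate number as a block, as given at the end. The KO effect was 0.10 ± 0.66 in cTECs (adjusted p = 0.94) and 0.50 ± 0.76 in mTECs (adjusted p = 0.928). Both signs turned with 1 library left out: -0.15 in cTECs without WT cTEC 1, and -0.13 in mTECs without WT mTEC 2.

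Spry2 (Entrez 24064, chromosome 14, 105891947 to 105896819) was even across groups. It was at 17.3, 22.3, 28.3 and 26.2 CPM in WT cTECs, 21.7 in KO cTEC, 24.8 and 16.6 in WT mTECs and 22.1 in KO mTEC, and all groups overlapped. The changes were -0.18 ± 0.27 for mTEC against cTEC (adjusted p = 0.647), -0.12 ± 0.35 for KO against WT in cTECs (adjusted p = 0.848) and 0.10 ± 0.39 in mTECs (adjusted p = 0.982). With WT cTEC 1 alone the first 2 values were 0.21 and 0.23, and without WT mTEC 2 the third was -0.17.

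Spry4 (Entrez 24066, chromosome 18, 38586247 to 38601347) was low. It was at 0.428, 0.738, 1.09 and 3.73 CPM in WT cTECs (6, 10, 20 and 68 counts), 7.46 in KO cTEC (116 counts), 2.15 and 1.59 in WT mTECs and 2.98 in KO mTEC. KO cTEC was above every WT cTEC library, but WT cTEC 4 stood well above the other WT libraries. The change of 2.30 ± 0.98 did not pass (adjusted p = 0.146). It passed without WT cTEC 4 (3.30, adjusted p = 0.0163) and with WT cTEC 1 alone (4.01, adjusted p = 0.00181). The limma-voom estimate passed as well (2.66, adjusted p = 0.0475). The KO effect in mTECs was 0.68 ± 1.20 (adjusted p = 0.946), and mTEC against cTEC in WT was 0.31 ± 0.86 (adjusted p = 0.815).

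SPRED proteins hold neurofibromin at the membrane, where it inactivates RAS. Spred1 (Entrez 114715, chromosome 2, 117121071 to 117182279) was at 29.4, 27.7, 27.9 and 13.2 CPM in WT cTECs and 56.5 in KO cTEC, again above all WT libraries. The change of 1.20 ± 0.39 did not pass (adjusted p = 0.0666). It passed without WT cTEC 1 (1.30, adjusted p = 0.0452), without WT cTEC 4 (1.01, adjusted p = 0.0239), with WT cTEC 1 alone (0.85, adjusted p = 0.0312) and with DESeq2 (1.21, adjusted p = 0.0468). In mTECs it was at 13.5 and 16.1 CPM in WT and 19.4 CPM in KO (0.39 ± 0.46, adjusted p = 0.891). The mTEC against cTEC change in WT was -0.73 ± 0.34 (adjusted p = 0.139), which passed without WT cTEC 4 (-0.96, adjusted p = 0.0151) and with WT cTEC 1 alone (-1.04, adjusted p = 0.00673).

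Spred2 (Entrez 114716, chromosome 11, 19924442 to 20024026) was at 14.8, 23.8, 23.1 and 13.0 CPM in WT cTECs, 27.8 in KO cTEC, 6.16 and 6.08 in WT mTECs and 5.33 in KO mTEC. As for Dusp6 and Spry1, every cortical library was above every medullary one. For the WT libraries alone, 24.7% of all tested genes lay wholly lower in mTECs and 30.3% wholly higher. The share with the KO libraries included was not counted. WT mTECs were lower by -1.61 ± 0.35 (adjusted p = 0.0129), a call lost without WT mTEC 1 (-1.61, adjusted p = 0.0974), without WT mTEC 2 (-1.59, adjusted p = 0.115) and with WT cTEC 1 and 4 alone (-1.19, adjusted p = 0.0839). The KO effect was 0.57 ± 0.39 in cTECs (adjusted p = 0.348) and -0.20 ± 0.47 in mTECs (adjusted p = 0.963). Of the 10 genes, Spred2 was the only one whose fitted KO effect in mTECs was below 0, against 52.1% of all tested genes. None of these effects was called, and those of Spry1 and Spry2 were also below 0 without WT mTEC 2. For the 5 inhibitors of the Sprouty and Spred families and for Dusp5 and Dusp6, the differences between the KO effects ran from -1.63 for Spry4 to 2.10 for Dusp5, and none was called (lowest adjusted p = 0.397). The Spry4 difference passed with WT cTEC 1 as the only WT cTEC (-3.33, adjusted p = 0.0277).

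**Figure D2:**
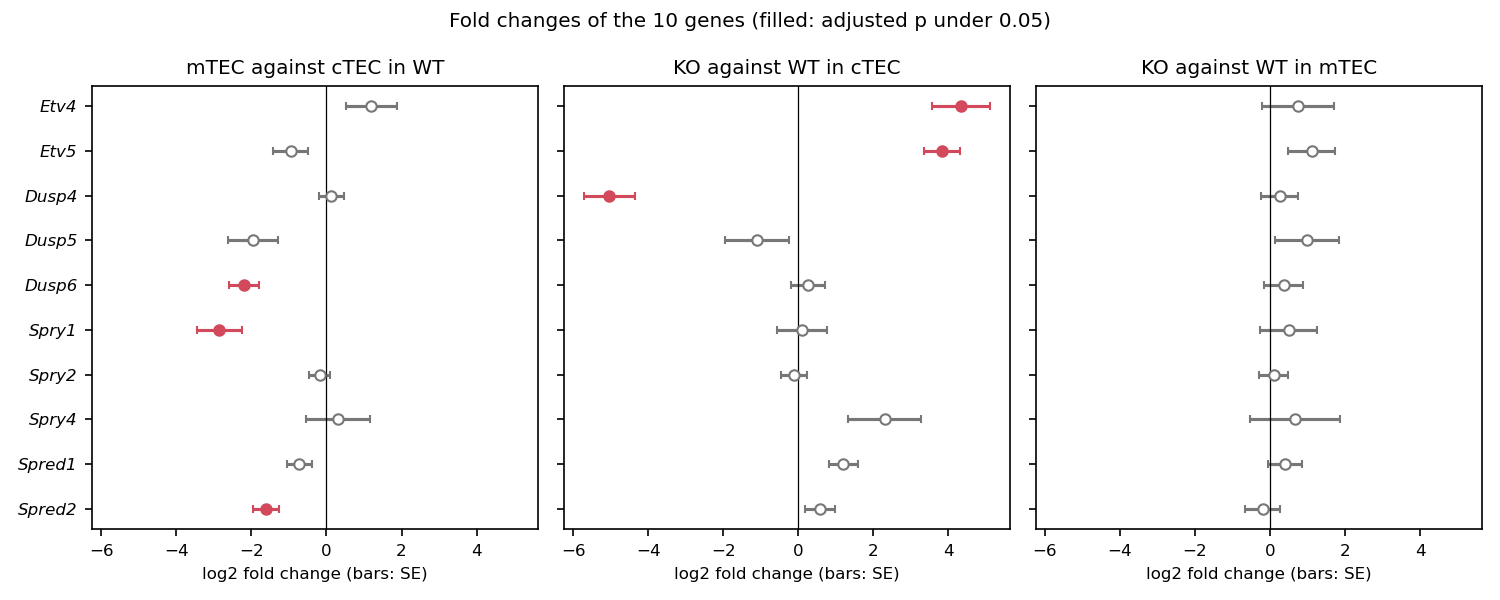
Log2 fold change of each gene in the 3 pairwise comparisons, with SE bars; filled points have an adjusted p under 0.05. The cortical KO panel holds the extremes in opposite directions, 4.34 for Etv4 and -5.04 for Dusp4, and the medullary KO panel has no filled point.

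KO cTEC lay outside the range of the 4 WT cTEC libraries for 6 of the 10 genes, above for Etv4, Etv5, Spry4, Spred1 and Spred2 and below for Dusp4. Of all tested genes, 29% lay above and 32.9% below in the same way (61.9% in all). The library labelled KO mTEC lay above both WT mTEC libraries for 7 genes and below for Spred2, against 38.6% and 41.7% of all genes (80.4% in all). WT mTECs lay wholly below WT cTECs for Dusp6, Spry1 and Spred2, against 24.7% of all genes, and wholly above for none, against 30.3% (55% in all).

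The order of the genes by level, compared per kilobase of gene length, changed with the group. In WT cTECs the highest was Dusp6 at 31.4 ± 11.7 CPM per kb (SD, n = 4), followed by Spry1 at 22.8 ± 8.99, Dusp4 at 17.5 ± 6.58, Dusp5 at 13.4 ± 8.23, Spry2 at 11.3 ± 2.32, Spred1 at 8.19 ± 2.53 and Spred2 at 6.51 ± 1.94. Neighbours in this order did not differ beyond their spread. Etv5 at 2.35 ± 0.67, Etv4 at 0.53 ± 0.41 and Spry4 at 0.33 ± 0.33 CPM per kb came last, with Etv5 apart from its neighbours. In KO cTEC, Etv5 at 33.5 CPM per kb was second only to Dusp6 at 37.3, Spry1 was at 24.4, Spred1 at 18.8 and Etv4 at 10.9, while Dusp4 at 0.53 came last. In WT mTECs Dusp4 led at 19.1 ± 3.28 CPM per kb (SD, n = 2), ahead of Spry2 at 9.93 ± 2.77 and Dusp6 at 6.88 ± 1.87. KO mTEC had the same leading genes, Dusp4 at 22.8, Spry2 at 10.6 and Dusp6 at 8.89 CPM per kb.

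**Figure D3:**
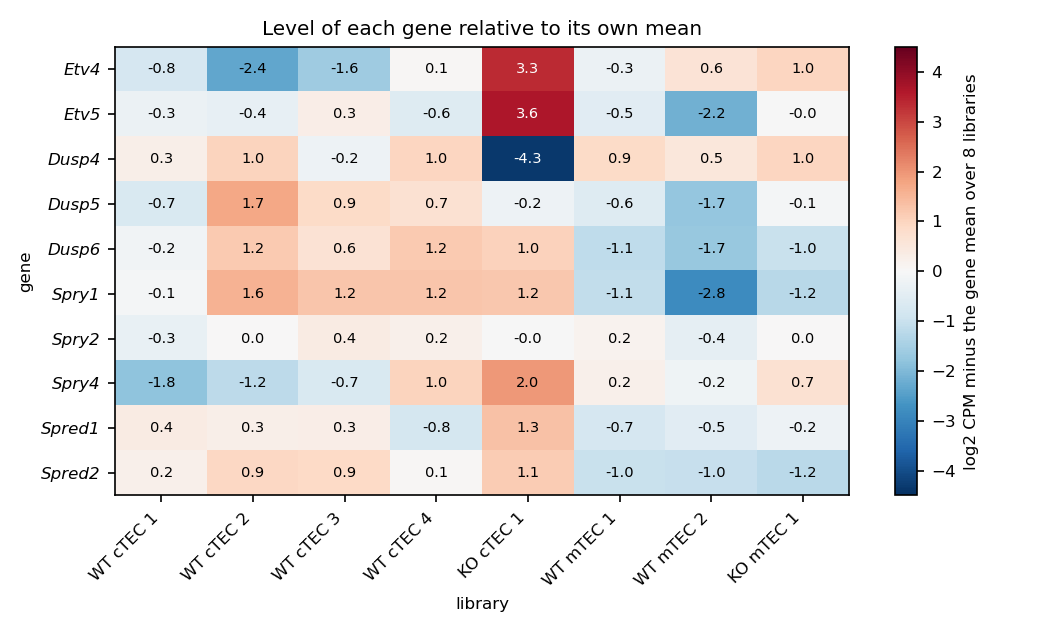
Log2 CPM of each gene minus its mean over the 8 libraries, by gene and library. KO cTEC holds high values for Etv4 (3.34) and Etv5 (3.63) and the low value of Dusp4, while Dusp6 there (1.04) sits within the range of WT cTEC 2 to 4 and Spry1 (1.21) just below it.

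Profiles were compared by the root mean square difference of mean-centred log2 CPM over the 8 libraries. Each library counts once, so WT cTECs, with 4 libraries, count more than any other group. Among the 10 genes the closest pairs were Dusp6 with Spry1 (0.49) and Dusp6 with Spred2 (0.50), and the farthest were Etv5 with Dusp4 (3.13) and Etv4 with Dusp4 (3.06). For both farthest pairs the largest gap was in KO cTEC, 1 library, where Etv5 was at 3.63, Etv4 at 3.34 and Dusp4 at -4.335. Among 11492 other genes with an average log2 CPM no lower than 3, those nearest to Dusp6 were Lrp1, an endocytic receptor (0.15), Eef2k, a kinase of translation elongation (0.20), Wwc2 (0.20), Frmd4b (0.22) and the chemokine gene Cx3cl1 (0.22). Those nearest to Etv5 were farther away: Unc119 (0.45), the protease inhibitor gene Serpine2 (0.45), Dmrta1 (0.46), Sptssb (0.53) and Ccdc80 (0.56).

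Other genes of the pathway were taken from named lists. Of 15 tested growth factor ligands, 8 were lower in KO cTEC and none was higher, against 12.4% of all genes lower and 5.1% higher. Their median log2 fold change was -2.70, against -0.14 for all genes. In limma-voom the count was 1 lower and 1 higher. Fgf21, an FGF hormone, fell from 79.0 ± 32.3 CPM (SD, n = 4) to 0.90 CPM (14 counts; -6.44 ± 0.80, adjusted p = 0.00133), and Epgn, an EGF receptor ligand, from 4.31 ± 0.65 to 0.32 CPM (-3.71 ± 0.60, adjusted p = 0.00427). Areg, another such ligand, had 0 counts in KO cTEC, and its WT cTEC level of 4.05 ± 1.31 CPM makes it at least 21.0-fold lower there against a limit of 3 counts. It is named outside the rule for named genes, with its values known. In limma-voom neither Fgf21 (adjusted p = 0.0947) nor Epgn (adjusted p = 0.118) was called. Mature mTEC and tuft cell markers fell in the same library, and their part in the ligand counts was not tested. In the library labelled KO mTEC no ligand was called. A called difference of KO effects, mTEC minus cTEC, was found for 5 of 15 ligands, against 6.81% of all genes, and for 2 without WT mTEC 1, 2 without WT mTEC 2, 2 with WT cTEC 1 and 4 alone, 8 with WT cTEC 1 as the only WT cTEC and 0 in limma-voom. Among the 5 were Fgf21 (6.89 ± 0.91, adjusted p = 0.00336) and Tgfa, an EGF receptor ligand (4.02 ± 0.76, adjusted p = 0.0163). Neither was called there in limma-voom, and Tgfa was also lost without either WT mTEC library (adjusted p = 0.0629 and 0.0658).

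Of 13 tested receptors 1 was higher and 2 were lower in KO cTEC, against 5.1% and 12.4% of all genes, with a median of -0.48. The count fell from 3 to 1 without WT cTEC 3 and in limma-voom and to 0 with WT cTEC 1 and 4 alone, and it was 5 with DESeq2. Met, the receptor of hepatocyte growth factor, rose from 41.3 ± 4.199 to 81.0 CPM (0.97 ± 0.28, adjusted p = 0.0492), while Igf1r fell by 1.42 ± 0.28 on the log2 scale (adjusted p = 0.011) and Fgfr3 by 2.63 ± 0.74 (adjusted p = 0.0427). Fgfr3 was the only receptor with a called difference of KO effects (3.97 ± 0.96, adjusted p = 0.0458), lost in 5 of 13 alternatives. Of 26 core genes from adaptors to ERK-activated kinases, 1 was higher and 1 lower, with a median of 0.08. The core count was 1 without WT cTEC 2, WT cTEC 3 or either WT mTEC library and in limma-voom, 4 with WT cTEC 1 as the only WT cTEC and 0 with WT cTEC 1 and 4 alone. Map2k1, which encodes the kinase MEK1, rose from 130.1 ± 14.7 to 268.1 CPM (1.04 ± 0.22, adjusted p = 0.0134), and Sos1, an exchange factor that loads RAS with GTP, fell by 0.85 ± 0.22 (adjusted p = 0.0312). With WT cTEC 1 and 4 alone the calls of Met (adjusted p = 0.164), Igf1r (adjusted p = 0.0587), Map2k1 (adjusted p = 0.073) and Sos1 (adjusted p = 0.0928) were lost, as was that of Fgfr3 (adjusted p = 0.0779). Over the 14 alternatives Met was lost in 8, Sos1 in 6 and Fgfr3 in 5.

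Among 17 tested ERK-induced genes outside the 10, 2 were higher and 2 lower in KO cTEC, against 5.1% and 12.4% of all genes, with a median of -1.38 against -0.14. Dusp1, Egr1, Egr3, Fos and Junb of this list are also among the immediate-early genes summed above. Fos was at 1089 CPM in KO cTEC, 515.9 in WT cTEC 1 and 4421 to 6156 in WT cTEC 2 to 4. Egr1 was at 881.3, 426.2 and 2602 to 3276 CPM in the same order. The part of the immediate-early difference in this median was not tested. Dusp7, a further cytoplasmic ERK phosphatase, rose from 42.7 ± 6.90 to 88.4 CPM (1.05 ± 0.24, adjusted p = 0.0203), a call lost without WT cTEC 3 (adjusted p = 0.0515), and Ccnd1, the cyclin D1 gene, fell from 53.9 ± 7.11 to 24.6 CPM (-1.13 ± 0.24, adjusted p = 0.0146), a call lost with WT cTEC 1 and 4 alone (adjusted p = 0.0674). The other called genes, named with their values known, were Il17rd, an FGF pathway inhibitor, at 0.48 ± 0.35 CPM in WT cTECs and 10.2 CPM in KO cTEC (4.39 ± 1.12, adjusted p = 0.0298), and Epha2 at 4.17 ± 0.83 and 0.84 CPM (-2.31 ± 0.62, adjusted p = 0.0358). Il17rd was near the floor of detection in WT cTECs. Without WT cTEC 3 neither was called: 0 genes of the list were higher and 1, Ccnd1, was lower. The number called in this list was 12 without WT cTEC 1, 1 without WT cTEC 3, 2 without WT cTEC 2 or either WT mTEC library, 7 with DESeq2 and 1 with WT cTEC 1 and 4 alone. Of 8 nuclear effectors 2 were lower, Elk3 by -0.97 ± 0.25 (adjusted p = 0.0315) and Ets2 by -0.64 ± 0.18 (adjusted p = 0.0472), with a list median of -0.49. Neither was called in limma-voom (adjusted p = 0.0944 and 0.0647), and over the 14 alternatives Ets2 was lost in 9 and Elk3 in 5. The count was 0 without WT cTEC 3 or either WT mTEC library.

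**Figure D4:**
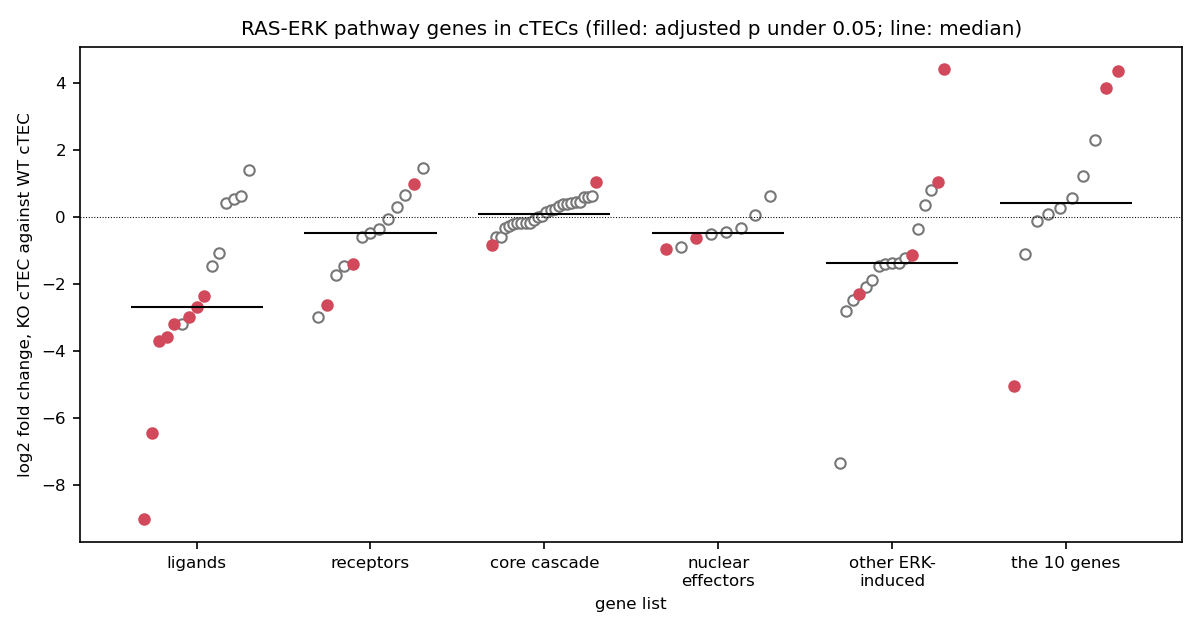
Log2 fold change in KO cTEC against WT cTECs for every tested gene of the 5 other pathway lists and for the 10 genes; filled points have an adjusted p under 0.05 and lines are medians. The ligand median is -2.70 and the core cascade median 0.08; Areg and Egr3, the lowest points of the ligands and of the other ERK-induced genes, had 0 counts in KO cTEC, so their plotted fold depends on the prior count.

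Between the WT populations, 3 of 13 receptors and 6 of 26 core genes were lower in mTECs and none higher, against 13.9% and 13.2% of all genes. Both shares called are near the 27% of all genes called in either direction. Named by the fixed rule were Egfr (-2.03 ± 0.20, adjusted p = 0.00115) and Fgfr1 (-1.93 ± 0.31, adjusted p = 0.00477) for receptors, and the kinase gene Rps6ka1 (-1.76 ± 0.22, adjusted p = 0.00202) and the adaptor gene Gab1 (-1.51 ± 0.16, adjusted p = 0.00136) for the core. Of 15 ligands 4 were higher and 1 lower: Igf1 was higher by 2.16 ± 0.37 (adjusted p = 0.0058), Fgf21 by 2.09 ± 0.36 (adjusted p = 0.00574), and Fgf1 was lower by -2.39 ± 0.22 (adjusted p = 0.000933). Of 17 other ERK-induced genes 6 were lower and 2 higher, among them Fos (-4.08 ± 1.02, adjusted p = 0.0228), Egr1 (-3.82 ± 0.83, adjusted p = 0.0145), Dusp2 (1.58 ± 0.38, adjusted p = 0.0186) and Ccnd1 (0.59 ± 0.17, adjusted p = 0.0328). Of 8 nuclear effectors 3 were lower and 1 higher: Ets1 (-1.77 ± 0.28, adjusted p = 0.00456), Elk1 (-1.38 ± 0.42, adjusted p = 0.0433) and Elk3 (0.77 ± 0.17, adjusted p = 0.0157) were the named ones. Against WT cTEC 1 alone, the library with low immediate-early levels, Fos was at -1.17 (adjusted p = 0.555) and Egr1 at -1.44 (adjusted p = 0.0937). Without WT mTEC 2 the numbers called were 2 core genes, 2 receptors, 1 ligand, 0 other ERK-induced genes and 0 nuclear effectors. Without WT mTEC 1 they were 3 core genes, 0 other ERK-induced genes and 1 nuclear effector, and the other ERK-induced count was 3 without WT cTEC 2, 4 without WT cTEC 3 and 5 without WT cTEC 4. The calls of Egfr, Fgf1, Gab1 and Rps6ka1 held in all 18 alternatives, and each of the others named was lost in at least 1.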

How the data were processed

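Polyadenylated RNA of 8 libraries was sequenced from low-input amplified cDNA. The authors deposited raw counts per Entrez gene, made with featureCounts on mm10 per the submitters' processing notes; the sources used here do not give versions, the aligner or the strand setting. The deposited files also give other values, the gene lengths, used for CPM per kb. A table of the whole series has 8 columns that match no label and was not used. Symbols came from RefSeq (GRCm38.p6) for 25275 identifiers.

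The 18163 genes with 2 or more libraries at a CPM of 1 or higher were scaled by TMM and tested with edgeR 4.0.16 (R 4.3.3), quasi-likelihood F test, robust dispersion, 1 mean per group (4 residual degrees of freedom), two-sided, Benjamini-Hochberg adjustment over all 18163. Each KO group holds 1 library, assumed to vary like WT. The steps were also run on simulated counts with 1 dispersion for all genes and groups. There KO varies like WT by construction, so that run does not check calls that rest on 1 KO library. Depth limits a count of 0 to 3 counts, counting error only. Alternatives used RLE factors, other filters, DESeq2 1.42.0, limma-voom 3.58.1 and fewer libraries. Named pathway genes were, per list, comparison and direction, the 2 called genes with the largest change whose average log2 CPM was 3 or higher. The 10 genes, the lists and the tests were chosen with earlier results of these data known.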

Additional observations from a re-analysis of the deposited data

Results flagged for a closer look

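Spred1 was at 13.2 CPM in WT cTEC 4, far below the other 3 WT cTEC libraries, with a gap to the nearest of 0.893 of the group's range. Chance flags about 1 in 20 groups of this size, and this was the only flag among 33 genes examined. Without that library the KO effect on Spred1 in cTECs was 1.01 (adjusted p = 0.0239).

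The KO effect differed between mTECs and cTECs by 5.29 on the log2 scale for Dusp4, 6.89 for Fgf21, 4.02 for Tgfa and 3.97 for Fgfr3, each in the test of the difference itself. Tgfa, for example, was at 8.78 to 17.6 CPM in WT cTECs, 1.09 in KO cTEC, 14.7 and 16.2 in WT mTECs and 20.8 in KO mTEC. With limma-voom these calls were lost, at adjusted p = 0.206 for Dusp4, 0.217 for Fgf21, 0.211 for Tgfa and 0.21 for Fgfr3.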

How the results depend on the processing

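Of 109 values under an alternative for calls made among the 10 genes, 96 kept their call and direction, 13 lost the call and 0 changed direction. The number of the 10 called for mTEC against cTEC was 3, and ran from 0 to 4 with 1 library left out (0 without WT mTEC 2). It was 1 with the replicate block and 0 with WT cTEC 1 and 4 only, an alternative chosen after seeing the data. The cause was not tested. For KO against WT in cTECs the number was 3, ran from 3 to 5 with 1 library left out (5 without WT cTEC 4), and was 5 with WT cTEC 1 as the only WT cTEC. For KO against WT in mTECs it was 0 under all 14 alternatives. For the difference of KO effects it was 1, ran from 1 to 2 with 1 library left out, and was 2 with DESeq2, 0 with limma-voom and 3 with WT cTEC 1 as the only WT cTEC. The replicate numbers 1 and 2 are shared by WT groups, and the labels do not say whether same-numbered libraries are paired. Their deviations from the group means correlated at -0.146 and -0.019. With 2 WT mTEC libraries the deviations of WT mTEC 1 mirror those of WT mTEC 2, so these correlations cannot decide it. The block called 2094 of all genes for mTEC against cTEC, against 4912 without it, with Dusp6 at -1.97 (adjusted p = 0.0646), Spry1 at -2.75 (adjusted p = 0.216) and Spry2 at 0.00196.

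Over all genes, mTEC against cTEC gave 603 calls without WT mTEC 2, 1162 without WT mTEC 1, 3176 without WT cTEC 3 and 964 with WT cTEC 1 and 4 only. KO against WT in cTECs gave 1726 in limma-voom, 6078 with WT cTEC 1 as the only WT cTEC and 1965 with WT cTEC 1 and 4 only, against 3179. In mTECs DESeq2 gave 139, 7 were called without WT cTEC 1 and 734 with it alone. The difference of KO effects gave 2050 in DESeq2, 104 in limma-voom, 649 and 668 without WT mTEC 1 and 2, 4110 with WT cTEC 1 alone and 803 with WT cTEC 1 and 4, against 1236.

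Values that were not called also changed sign. With 1 library left out, mTEC against cTEC ran from -0.065 to 0.30 for Dusp4 and from -0.49 to 0.082 for Spry2. The KO effect in cTECs ran from -0.15 to 0.28 for Spry1, and that in mTECs from -0.13 to 1.62 for Spry1 and from -0.17 to 0.41 for Spry2. The difference of KO effects ran from -0.14 to 0.42 for Dusp6, from -0.22 to 1.53 for Spry1 and from -0.049 to 0.52 for Spry2. With WT cTEC 1 as the only WT cTEC, Spry2 was at 0.21 for mTEC against cTEC, Dusp5 at 0.38 and Spry2 at 0.23 for the KO effect in cTECs, and Dusp6 at -0.75, Spry1 at -0.68 and Spry2 at -0.13 for the difference. Spry4 for mTEC against cTEC was at -0.12 in the additive model and -0.17 with WT cTEC 1 and 4 only, where the difference for Dusp6 was -0.027. Depth limits Etv4 and Spry4 most: their lowest WT cTEC counts were 5 and 6.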
